A study of Mus musculus with 6 samples.

Results

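The Hox genes encode homeodomain transcription factors that give cells a position along the body axis. Here, in 6 mouse colons, values are given for all 39 genes of the Hoxa, Hoxb, Hoxc and Hoxd clusters, taken by their symbols from the 30419 genes with values in the deposited table. RNA of the whole colon, without separation of its layers, came from male mice aged 12 weeks. There were 3 wild-type mice (WT) and 3 mice of genotype Tnfrsf1a-/-, labelled R1ko, with a knockout of the gene for tumour necrosis factor receptor 1. The labels give the strain C57Bl/6J for all 6 samples and do not state how the allele was made or whether littermates were used. They also do not state where along the gut the colon was divided from the caecum and the anus.

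In mammals the Hox genes lie in 4 clusters, and genes at matching places in different clusters form paralog groups numbered from 1 to 13. Low numbers are active in the anterior of the embryo and high numbers in the posterior, in the same order as the genes stand on the chromosome, and adult tissues keep much of this code. Groups 9 to 13 are the posterior genes, and group 13 marks the hindgut, the genital tract and the tips of the limbs. The series holds no sample of known position along the gut. Any score of position below therefore ranks the 6 colons against each other and is not calibrated to a place.

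All 39 genes were found, 11 in the Hoxa cluster (GRCm38 chromosome 6, 52155590 to 52260880, minus strand), 10 in the Hoxb cluster (chromosome 11, 96194316 to 96368256, plus strand), 9 in the Hoxc cluster (chromosome 15, 102921103 to 103036852, plus strand) and 9 in the Hoxd cluster (chromosome 2, 74668310 to 74765142, plus strand). The Hoxa cluster shares its chromosome with the targeted gene Tnfrsf1a, at a distance of 73.1 Mb.

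Group 13 held about as much Hox RNA as all other groups combined, so the 4 homeoboxes of this group are shown first. The homeobox is the stretch of 180 bases that encodes the DNA-binding homeodomain, and each of these lies within exon 2 of a transcript with 2 exons. The sequences were read from the GENCODE M21 transcripts (GRCm38), 5′ to 3′ on the coding strand. Capitals mark codons 48 to 53 of the homeodomain, in its recognition helix. The homeoboxes lie at chr6:52258928-52259107 (minus strand) for Hoxa13, chr11:96196020-96196199 (plus) for Hoxb13, chr15:102927210-102927389 (plus) for Hoxc13 and chr2:74669930-74670109 (plus) for Hoxd13.

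Hoxa13: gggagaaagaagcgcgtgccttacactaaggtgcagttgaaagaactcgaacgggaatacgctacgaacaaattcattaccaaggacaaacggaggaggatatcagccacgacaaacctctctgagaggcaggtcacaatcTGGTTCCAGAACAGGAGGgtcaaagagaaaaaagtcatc
Hoxb13: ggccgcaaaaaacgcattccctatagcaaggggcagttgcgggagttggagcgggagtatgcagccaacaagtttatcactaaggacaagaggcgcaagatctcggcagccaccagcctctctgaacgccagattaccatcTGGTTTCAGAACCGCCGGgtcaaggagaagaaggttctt
Hoxc13: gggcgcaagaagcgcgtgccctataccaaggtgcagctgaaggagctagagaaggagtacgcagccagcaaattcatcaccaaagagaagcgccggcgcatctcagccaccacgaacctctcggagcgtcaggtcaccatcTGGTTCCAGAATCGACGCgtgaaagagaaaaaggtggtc
Hoxd13: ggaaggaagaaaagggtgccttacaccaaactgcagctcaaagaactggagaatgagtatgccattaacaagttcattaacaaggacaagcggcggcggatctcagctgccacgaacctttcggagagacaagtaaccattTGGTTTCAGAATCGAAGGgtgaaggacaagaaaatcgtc

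Across these 180 bases the 4 genes were 67.2 to 77.2% identical in pairs, and the longest run of bases shared by any pair was 9 to 14. The table was made by kallisto, which matches words of a fixed length (31 bases by default) to transcripts. No word of 31 bases in a Hoxb13 or Hoxd13 transcript occurred in a transcript of any other gene, and for Hoxa13 and Hoxc13 the shares were 0.66% and 0.08%. Among the 4 genes themselves, 0 words were shared.

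Values are TPM (transcript abundance relative to the library total), a level corrected for transcript length that can be compared between genes. No read counts were used here, so the depth behind each value is unknown. WT replicate 2 stood apart before any comparison. Transcripts assigned to no gene held 27.4% of its TPM, against 1.86 to 7.23% in the other 5 libraries, and 15 of 22 Hox genes had their lowest value there. The Hox genes were therefore tested both on TPM as deposited and on TPM after median-of-ratios scaling, which sets the typical gene equal across libraries (factors from 0.786 in WT replicate 2 to 1.13 in WT replicate 1). For other genes the values are those on deposited TPM unless scaling is named. Values per library are always listed as WT replicates 1, 2 and 3, then R1ko replicates 1, 2 and 3. As a check of the labels, 1 annotated Tnfrsf1a transcript was read, ENSMUST00000032491. It stood at 67.6, 39.9 and 59.1 TPM in WT and at 23.5, 20.4 and 25.6 TPM in R1ko (log2 fold change -1.21 as deposited and -1.22 after scaling, limma adjusted p = 0.197 and 0.0168). The level left in R1ko does not show that this RNA is complete, and other Tnfrsf1a transcripts are not given here.

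Of the 39 genes, 22 reached a mean of 1 TPM over the 6 libraries and were tested. They were 9 of 11 Hoxa, 7 of 10 Hoxb, 6 of 9 Hoxd and 0 of 9 Hoxc genes. In 12 genes the mean was at least 10 TPM. The 17 genes that were not tested had means between 0.003 and 0.989 TPM, with a highest single value of 1.64 TPM for Hoxd4, and 37 of 39 genes were above 0 in every library. The plot of levels by paralog group shows the same outline in all 6 libraries, low at the anterior end and high at the posterior end of the a, b and d clusters.

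**Figure D1:**
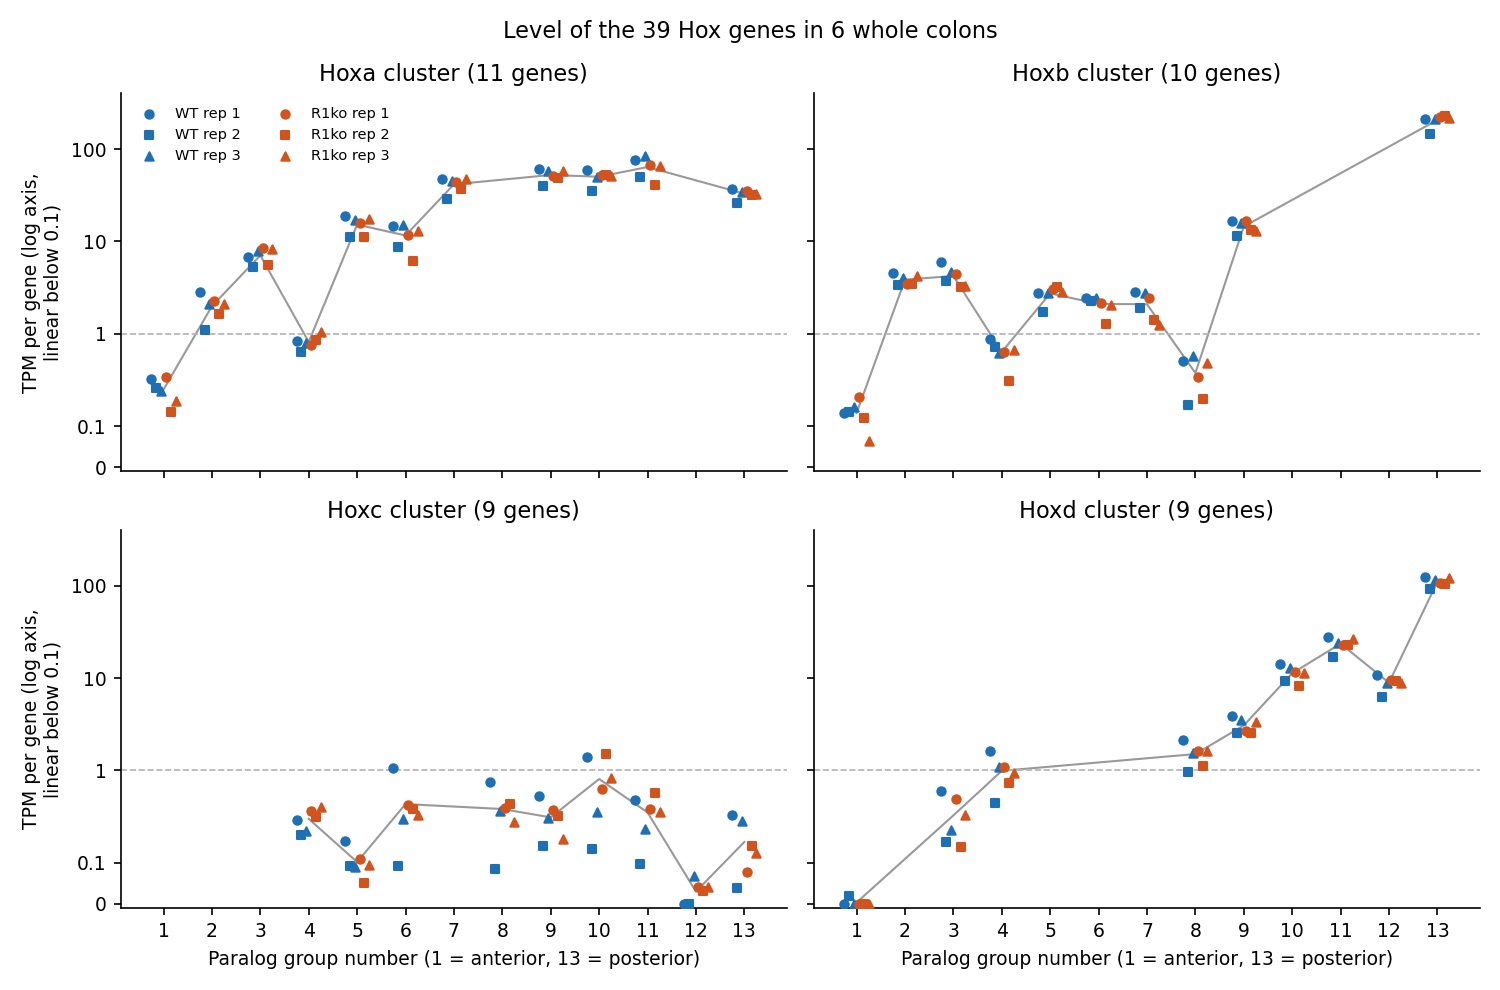
TPM of each of the 39 Hox genes (vertical axis, logarithmic above 0.1 TPM and linear below) against its paralog group number, in 1 panel for each cluster. Points are single libraries (blue WT, orange R1ko; circle, square and triangle for replicates 1, 2 and 3), the grey line joins means over the 6 libraries, and the dashed line is 1 TPM. The Hoxb and Hoxd clusters peaked at group 13, the Hoxa cluster at group 11, and no Hoxc gene averaged 1 TPM.

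Hoxb13 and Hoxd13 were the most abundant Hox genes, in that order in 6 of 6 libraries and with ranges that did not meet. Hoxb13, a group 13 gene active in hindgut and prostate, stood at 211, 147 and 213 TPM in WT and at 225, 228 and 216 TPM in R1ko. All 3 R1ko libraries were above all 3 WT libraries, by a margin that was narrow against WT replicates 1 and 3. Hoxd13, which takes part in forming the digits and the anal sphincter, stood at 125, 92.3 and 114 TPM in WT and at 106, 103 and 121 TPM in R1ko, with mixed groups. Hoxa13, required in the hindgut, the genital tract and the limbs, was lower at 37.1, 26.04 and 34.7 TPM and 35.3, 31.6 and 32.3 TPM. Its groups overlapped as well. Hoxc13, a gene of hair follicles and nails, was near the floor at 0.325, 0.0388 and 0.284 TPM in WT and 0.0781, 0.152 and 0.129 TPM in R1ko.

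Below these came the central and posterior Hoxa genes, whose ranges met those of their neighbours in the order. Hoxa11, a gene of limb, kidney and uterus development, stood at 76.4, 49.8 and 83.3 TPM in WT and 66.6, 41.3 and 66.1 TPM in R1ko. Hoxa9, a regulator of blood progenitors, was at 61.1, 39.6 and 57.3 TPM and 50.5, 48.4 and 57.6 TPM. Hoxa10, required in the uterus, was at 59.9, 34.8 and 50.2 TPM and 52.2, 52.7 and 51.3 TPM. Each of these genes overlapped between the groups, and Hoxa11 was above Hoxa9 in 5 of 6 libraries while Hoxa9 was above Hoxa10 in 4 of 6. Hoxa7 held 47.6, 28.6 and 44.6 TPM in WT and 43.6, 37.3 and 47.3 TPM in R1ko. Hoxa5, a gene of lung and gut mesenchyme, held 18.6, 11.1 and 17.1 TPM and 15.8, 11.3 and 17.3 TPM, and its neighbour Hoxa6 14.7, 8.74 and 14.99 TPM and 11.8, 6.17 and 13.1 TPM. In both, replicate 2 of each group was the lowest library. Hoxa3, needed for thymus and parathyroid, was the highest of the tested anterior genes at 6.77, 5.27 and 7.97 TPM in WT and 8.51, 5.50 and 8.29 TPM in R1ko.

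In the Hoxd cluster, levels were lower towards the anterior genes, with a dip at Hoxd12. Hoxd12 stood at 10.8, 6.18 and 8.89 TPM in WT and 9.43, 9.33 and 8.76 TPM in R1ko, below Hoxd11 at 27.8, 16.8 and 24.2 TPM and 23.0, 22.8 and 26.7 TPM. These posterior Hoxd genes shape the limb skeleton. Hoxd10 held 14.2, 9.30 and 12.9 TPM in WT and 11.6, 8.12 and 11.5 TPM in R1ko, and Hoxd9 held 3.88, 2.52 and 3.55 TPM and 2.65, 2.51 and 3.32 TPM. All 4 overlapped between the groups. Hoxd8 lay between 0.949 and 2.13 TPM over the 6 libraries.

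The Hoxb cluster had a gap between its posterior end and the rest. Hoxb9, a gene of the thoracic skeleton, stood at 16.6, 11.6 and 15.8 TPM in WT and 16.6, 13.4 and 12.9 TPM in R1ko, and every other Hoxb gene except Hoxb13 was lower. Hoxb3, a hindbrain gene, held 6.02, 3.72 and 4.72 TPM in WT and 4.42, 3.19 and 3.27 TPM in R1ko. Hoxb2, also a hindbrain gene, held 4.54, 3.37 and 4.01 TPM and 3.43, 3.48 and 4.26 TPM. Both overlapped as deposited. Hoxb5, which acts in the enteric nerve precursors, stood at 2.77, 1.73 and 2.78 TPM in WT and 3.08, 3.21 and 2.85 TPM in R1ko, with the R1ko libraries on top. Hoxb6 went the other way, with 2.44, 2.26 and 2.45 TPM in WT and 2.14, 1.28 and 2.04 TPM in R1ko. Hoxb7 held 2.82, 1.89 and 2.73 TPM in WT and 2.42, 1.41 and 1.26 TPM in R1ko, with 1 R1ko library inside the WT range. In this bulk RNA, fewer cells with a gene and less RNA in each cell cannot be told apart.

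The Hoxc cluster was almost silent. Its 9 genes had means of 0.030 to 0.806 TPM and summed to 5.0, 0.897 and 2.22 TPM in WT and 2.78, 3.73 and 2.63 TPM in R1ko, which was 0.177 to 0.654% of all Hox TPM. The most abundant of them, Hoxc10, a gene of the lumbar spinal cord and the hind limb, stood at 1.41, 0.140 and 0.354 TPM in WT and 0.632, 1.49 and 0.818 TPM in R1ko. It was highest in WT replicate 1 and R1ko replicate 2, and the summed skeletal muscle list (10 of 10 genes tested) was highest in the same libraries at 2985, 185 and 629.8 TPM in WT and 1124, 3013 and 1553 TPM in R1ko. The part of other tissue in the Hoxc values was not tested.

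No Hox gene passed the test between R1ko and WT, on deposited or scaled TPM. Among all 14284 genes tested with limma, 0.266% passed an adjusted p of 0.05 on deposited TPM and 0.042% after scaling, so 0 of 22 lies at that background. The smallest adjusted p of a Hox gene was 1.0 on deposited TPM and 0.408 after scaling. At an unadjusted p under 0.05, 0 Hox genes passed on deposited TPM (3.7% of all genes) and 3 after scaling (11.4% of all genes). Log2 fold changes, on the scale of log2(TPM + 0.5), which understates changes of low genes, ran from -0.46 for Hoxb7 to 0.30 for Hoxb5. Their median was -0.01, beside 0.03 for all genes, with 11 Hox genes above 0 (55.7% of all genes) and 11 below. After scaling the median was -0.04, beside -0.00 for all genes, with 9 above 0 (49.3% of all genes) and 13 below.

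**Figure D2:**
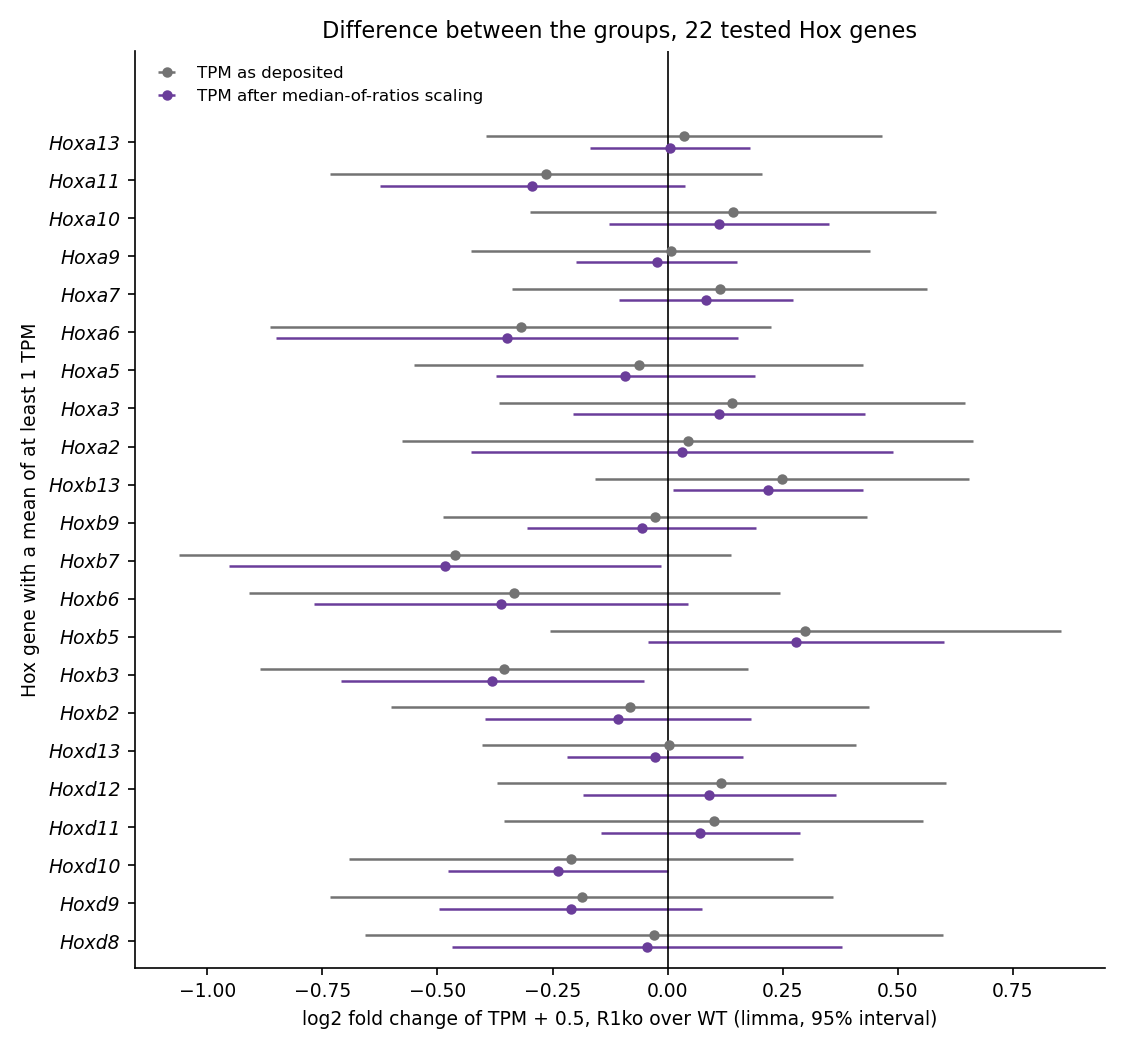
Log2 fold change of TPM + 0.5 in R1ko over WT (horizontal axis) for the 22 tested Hox genes, with 95% intervals from limma, for deposited TPM (grey) and scaled TPM (violet), n = 3 mice in each group. All grey intervals cross 0; the violet intervals of Hoxb13, Hoxb3 and Hoxb7 do not, and none of these passed after adjustment over all genes.

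Scaling narrowed the estimates, and the median standard error of the 22 genes went from 0.24 to 0.12. The scaled intervals give a range for the difference in each gene. Among the 22 genes the scaled bound farthest from 0 was -0.95, for Hoxb7, and the 3 genes given next had narrower intervals. For Hoxd13 the scaled log2 fold change was -0.03, with a 95% interval from -0.22 to 0.16. For Hoxa13 it was 0.01, from -0.17 to 0.18, and for Hoxa9 -0.02, from -0.20 to 0.15. Differences inside these intervals remain possible, and a 95% interval does not exclude larger ones. With 3 mice in each group, these are intervals for single genes and not limits of detection after adjustment over all genes. A larger scaled log2 fold change, -0.48 for Hoxb7, also did not pass (limma adjusted p = 0.437).

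The 3 genes with a scaled interval on 1 side of 0 were all in the Hoxb cluster. Hoxb13 had a log2 fold change of 0.25 as deposited and 0.22 after scaling (interval 0.01 to 0.42, limma adjusted p = 0.4304). Its scaled levels were 187, 187 and 194 TPM in WT and 212, 248 and 203 TPM in R1ko. Hoxb3 was at -0.36 as deposited and -0.38 after scaling (interval -0.71 to -0.05, limma adjusted p = 0.408), and Hoxb7 at -0.46 and -0.48 (interval -0.95 to -0.01, limma adjusted p = 0.437). None of the 3 therefore met the threshold. Leaving out WT replicate 2 took the deposited value of Hoxb13 to 0.073 and the scaled value to 0.21.

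As deposited, the groups did not overlap for 3 of 22 Hox genes (13.6%), where 4.98% of all genes tested did not overlap. R1ko was higher for Hoxb13 and Hoxb5 (3.17% of all genes) and WT was higher for Hoxb6 (1.81% of all genes). After scaling it was 8 of 22 (36.4%), against 18.5% of all genes. R1ko was higher for the same 2 genes (9.3% of all genes), and WT was higher for 6, namely Hoxa11, Hoxb3, Hoxb6, Hoxb7, Hoxd9 and Hoxd10 (9.21% of all genes). For a single gene, 3 mice against 3 without overlap give a two-sided exact permutation p of 0.1, the smallest that this design allows. Among the genes that were not tested, Hoxc4 also did not overlap, at 0.291, 0.200 and 0.219 TPM in WT and 0.362, 0.316 and 0.403 TPM in R1ko.

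By position in the code, groups 1 to 3 and 4 to 8 were mixed or mostly below 0. In groups 1 to 3, 2 of 4 genes were above 0 and the median log2 fold change was -0.02. In groups 4 to 8, 2 of 7 were above 0 and the median was -0.06. In groups 9 to 13, 7 of 11 were above 0 as deposited and 5 of 11 after scaling, with medians of 0.01 and -0.02. By cluster, 6 of 9 Hoxa, 2 of 7 Hoxb and 3 of 6 Hoxd genes were above 0 as deposited.

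The share that each paralog group takes of all Hox TPM does not depend on the scaling of a library. Groups 9 to 13 held 84.5, 85.9 and 85.0% in WT and 85.2, 87.7 and 84.9% in R1ko. Group 13 alone held 48.8, 52.2 and 49.7% in WT and 52.0, 56.4 and 51.5% in R1ko. The groups of mice overlapped in both shares. The anterior groups 1 to 3 held 2.77, 2.76 and 2.66% in WT and 2.78, 2.21 and 2.58% in R1ko, again with overlap. Of the 13 single paralog groups, 3 had shares that did not overlap, and all 3 were higher in WT. Group 6 took 2.33 ± 0.13% in WT and 1.81 ± 0.51% in R1ko, group 9 took 10.6 ± 0.09% and 10.1 ± 0.19%, and group 11 took 13.9 ± 0.84% and 11.9 ± 1.64% (SD, n = 3). Shares within a library sum to 100, so a higher share of 1 gene lowers the others. Hoxb13 alone took 28.6 ± 0.87% in WT and 32.5 ± 2.67% in R1ko (SD, n = 3). The count of 3 of 13 has no counterpart over all genes to be read against.

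**Figure D3:**
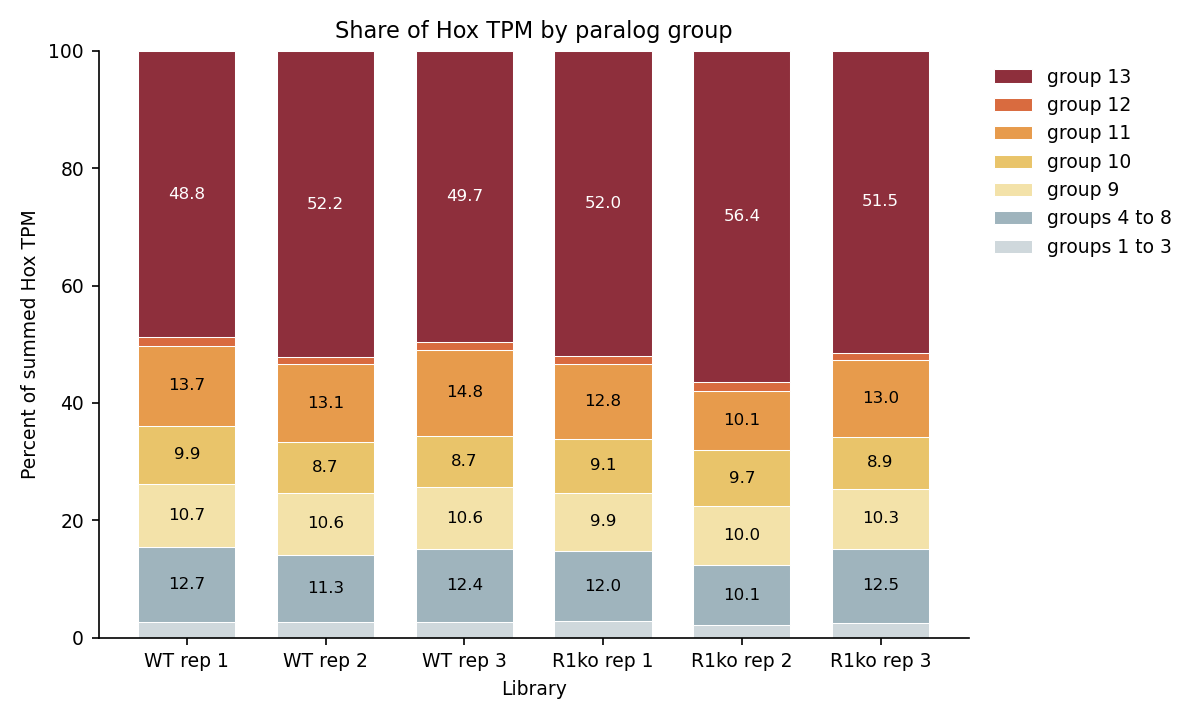
Percent of summed Hox TPM (vertical axis, 0 to 100) by paralog group in each of the 6 libraries, stacked from groups 1 to 3 at the bottom to group 13 at the top. Group 13 took 48.8 to 56.4% and was largest in R1ko replicate 2.

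The paralog index condensed the code to 1 number for each library, the mean paralog group number weighted by TPM. It was 10.85, 10.99 and 10.90 in WT and 10.97, 11.19 and 10.94 in R1ko, or 10.91 ± 0.07 and 11.03 ± 0.14 (SD, n = 3), and the groups overlapped. The difference of 0.12 was close to the pooled SD of 0.11. R1ko replicate 2 was the highest library, and without it the difference was 0.04, while the difference in the share of groups 9 to 13 went from 0.81 to -0.06 percentage points. Without Hoxb13 the index was 10.03, 10.17 and 10.04 in WT and 10.01, 10.20 and 10.06 in R1ko, a difference of 0.012. The index carries no test, and differences smaller than the spread within a group cannot be told from that spread.

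Within the clusters, the index overlapped between the groups for Hoxa and Hoxd and did not for Hoxb. In the Hoxb cluster it was 12.01, 12.01 and 12.11 in WT and 12.18, 12.32 and 12.24 in R1ko. Hoxb13 made up 85.2, 85.2 and 86.3% of Hoxb TPM in WT and 87.1, 89.5 and 88.6% in R1ko. The difference of 0.20 in the Hoxb index stayed between 0.17 and 0.24 when each library was left out in turn. In the Hoxa cluster the index was 9.24, 9.32 and 9.27 in WT and 9.23, 9.31 and 9.13 in R1ko, and in the Hoxd cluster 12.16, 12.31 and 12.22 and 12.21, 12.30 and 12.25. Neither of these clusters set the groups apart. The ratio of Hoxb13 to Hoxa13 was 5.69, 5.65 and 6.15 in WT and 6.38, 7.21 and 6.69 in R1ko without overlap, and that of Hoxb13 to Hoxd13 was 1.69, 1.59 and 1.87 and 2.13, 2.20 and 1.79 with overlap. These ratios and cluster values were looked at after single genes had been seen, and they carry no test.

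**Figure D4:**
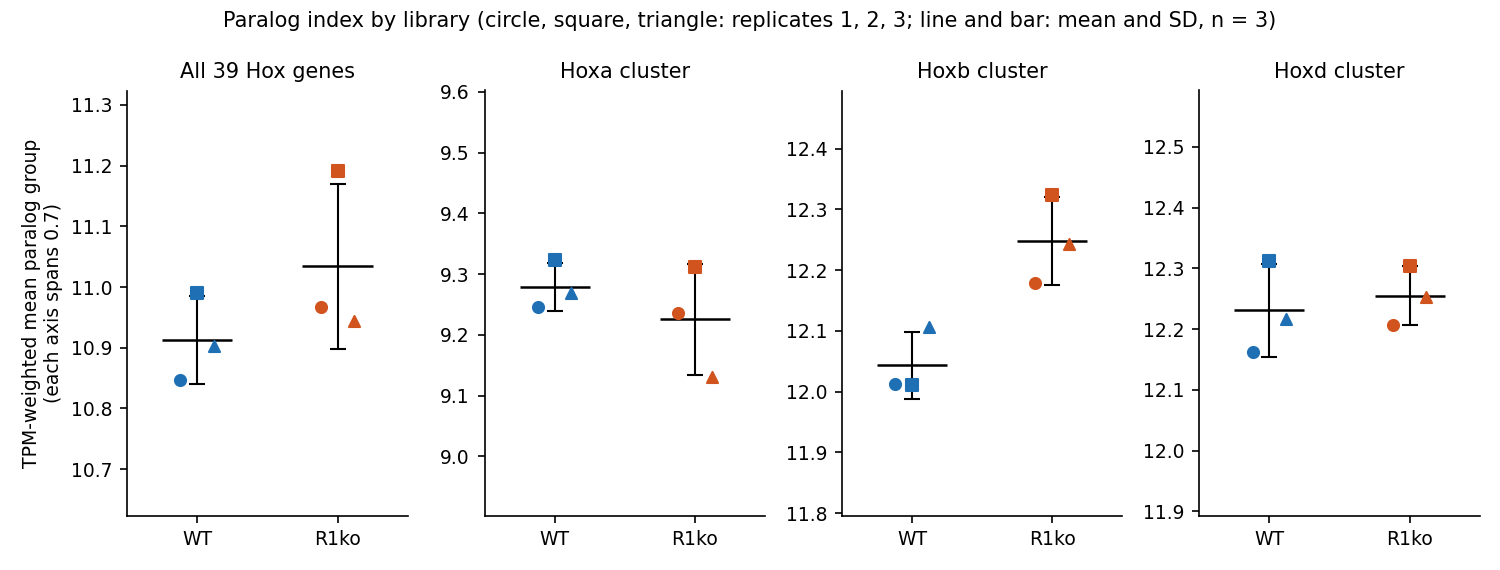
Paralog index (mean paralog group number weighted by TPM, vertical axis, each panel spanning 0.7 around its own mean) of all 39 Hox genes and within the Hoxa, Hoxb and Hoxd clusters. Symbols are single libraries, horizontal lines are means and bars are SD (n = 3). The groups overlap in all panels except that of the Hoxb cluster.

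Hoxb13 is made in the epithelium of the hindgut, and the makeup of the samples was therefore read beside it. The summed epithelium list (8 of 8 genes tested) stood at 7597, 8402 and 8572 scaled TPM in WT and 8629, 9271 and 8314 in R1ko. It was highest in R1ko replicate 2, which also had the highest scaled Hoxb13. For each 1000 TPM of the epithelium list there were 24.6, 22.3 and 22.6 TPM of Hoxb13 in WT and 24.6, 26.8 and 24.4 TPM in R1ko, and the groups overlapped. The fibroblast list (6 of 6 tested) was lowest in the same R1ko replicate 2, at 666, 723 and 707 scaled TPM in WT and 611, 524 and 669 in R1ko. The smooth muscle list (8 of 8 tested) stood at 7467, 7495 and 6904 scaled TPM in WT and 6370, 6684 and 6888 in R1ko. All 3 R1ko libraries were thus below all 3 WT libraries after scaling, by a narrow margin, while the groups overlapped on deposited TPM. No gene of the 3 lists passed the test, and their part in the Hox values was not tested. Prostate also makes Hoxb13. Of the 7 accessory gland markers in the table, 4 were at 0 in all 6 libraries, among them Pbsn and Svs4. Tgm4 was above 0 in all 6 libraries, at 0.193 to 0.530 TPM, and the 7 markers summed to at most 0.582 TPM. The part of prostate in the Hoxb13 values was not tested.

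Across all 39 genes, Pearson correlations of log2 levels between 2 libraries were 0.989 to 0.996 for the 6 pairs within a group and 0.985 to 0.997 for the 9 pairs between groups. These describe the profiles across genes, which are not independent replicates. All Hox genes together summed to 765, 508 and 729 TPM in WT and 705, 643 and 717 TPM in R1ko, and to 677, 647 and 664 and 663, 701 and 673 scaled TPM, with overlap on both scales.

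Single transcripts were tested as well. The 39 genes had 87 transcripts in the table, 63 of them annotated as protein coding, and protein-coding transcripts held 89.3 to 90.9% of Hox TPM. Of 35 transcripts tested, 0 passed an adjusted p of 0.05 in limma, where 0.0419% of all 31056 tested transcripts passed on deposited TPM and 0.0451% after scaling. At an unadjusted p under 0.05, 0 passed on deposited TPM (5.02% of all) and 3 after scaling (11.2% of all). Hoxb13, Hoxd13, Hoxd12, Hoxd10, Hoxd9, Hoxa2, Hoxa5, Hoxa6 and Hoxb6 were each carried by 1 transcript with 100% of the gene's TPM. Hoxa7 and Hoxa10 were divided among several transcripts. The Hoxa7 transcript with the highest mean share, ENSMUST00000153280, is annotated for nonsense-mediated decay and held 29.6 to 32.8%. In Hoxa10 the protein-coding transcript ENSMUST00000121043 held 42.2 to 48.8% and the noncoding transcript ENSMUST00000126402 held 30.7 to 37.7%. On deposited TPM the smallest p-values belonged to the main Hoxb5 transcript ENSMUST00000049272 (log2 fold change 0.41, limma adjusted p = 1.0) and to a minor Hoxa13 transcript, ENSMUST00000047993 (0.36, limma adjusted p = 1.0). That minor form made up 6.90, 6.76 and 6.86% of Hoxa13 in WT and 8.76, 8.25 and 10.2% in R1ko, higher in all 3 R1ko libraries. After scaling the smallest p was that of the noncoding Hoxa9 transcript ENSMUST00000154641 (log2 fold change -0.28, limma adjusted p = 0.362), followed by the minor Hoxa13 and the Hoxb13 transcript.

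Genes that work with Hox proteins or set their levels did not stand apart as groups. The list of cofactors and ParaHox genes, relatives of Hox genes outside the clusters, had 12 of 17 genes tested and 0 passed. Hox proteins bind DNA together with Pbx and Meis proteins, and the tested Pbx, Meis and Pknox genes had log2 fold changes from -0.51 for Pbx4 to 0.08 for Pbx2, with Meis3 at -0.24. Cdx1 and Cdx2 are intestinal ParaHox genes that activate Hox genes in the embryo. Cdx2 stood at 9.65, 6.08 and 9.92 TPM in WT and 16.7, 12.8 and 18.8 TPM in R1ko. All R1ko libraries were higher, and the log2 fold change of 0.89 as deposited and 0.86 after scaling did not pass (limma adjusted p = 0.155 and 0.132). Cdx1 stood at 205, 134 and 181 TPM in WT and 183, 230.3 and 214 TPM in R1ko, with overlap. The next smallest p was that of Pbx4 on deposited TPM and that of Meis3 after scaling (limma adjusted p = 1.0 and 0.499). Pdx1 of duodenum and pancreas was at most 0.04 TPM, and Cdx4, Gsx1 and Gsx2 were listed at 0 throughout.

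Polycomb proteins hold Hox genes silent and Trithorax proteins keep them active. All 17 listed genes were tested and 0 passed. Their median log2 fold change was -0.03 as deposited and -0.06 after scaling. The smallest p-values on deposited TPM belonged to Cbx8, a Polycomb reader, with 5.47 ± 0.75 TPM in WT and 8.15 ± 2.19 TPM in R1ko, and Pcgf2, with 38.5 ± 12.96 and 30.5 ± 9.94 TPM (SD, n = 3), and after scaling the smallest was that of Ezh2, the Polycomb methyltransferase (log2 fold change -0.23, limma adjusted p = 0.411). Retinoic acid and Gdf11 act on Hox expression in the embryo. Of 9 tested genes in that list, 1 passed on deposited TPM (0.266% of all genes) and 0 after scaling (0.042% of all genes). The gene that passed was Cyp26b1, an enzyme that degrades retinoic acid. It stood at 3.44 ± 0.88 TPM in WT and 1.002 ± 0.40 TPM in R1ko (log2 fold change -1.40, limma adjusted p = 0.0293, and 0.287 after scaling). The receptor genes Rara, Rarb and Rarg and the synthesis genes Aldh1a1 and Aldh1a3 lay between -0.17 and 0.04.

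Other genes that mark places along the gut were read as a check of the tissue. Gata4, active in stomach and proximal small intestine, was between 0.162 and 0.4995 TPM. Among gut segment factors 6 of 12 were tested and 0 passed, and the smallest p-values on either scale were those of Hnf4a (log2 fold change 0.24) and Nkx2-3 (-0.15). The small intestine list was mixed and summed to 126 to 177 TPM. Its brush border enzymes Sis, Lct and Alpi were under 0.4 TPM in every library, while Rbp2, a retinol carrier, was at 100.3 to 143 TPM, Fabp6, a bile acid carrier, at 11.6 to 19.4 TPM and the lysozyme gene Lyz1 at 7.94 to 15.9 TPM. The 8 stomach markers summed to at most 2.06 TPM.

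**Figure D5:**
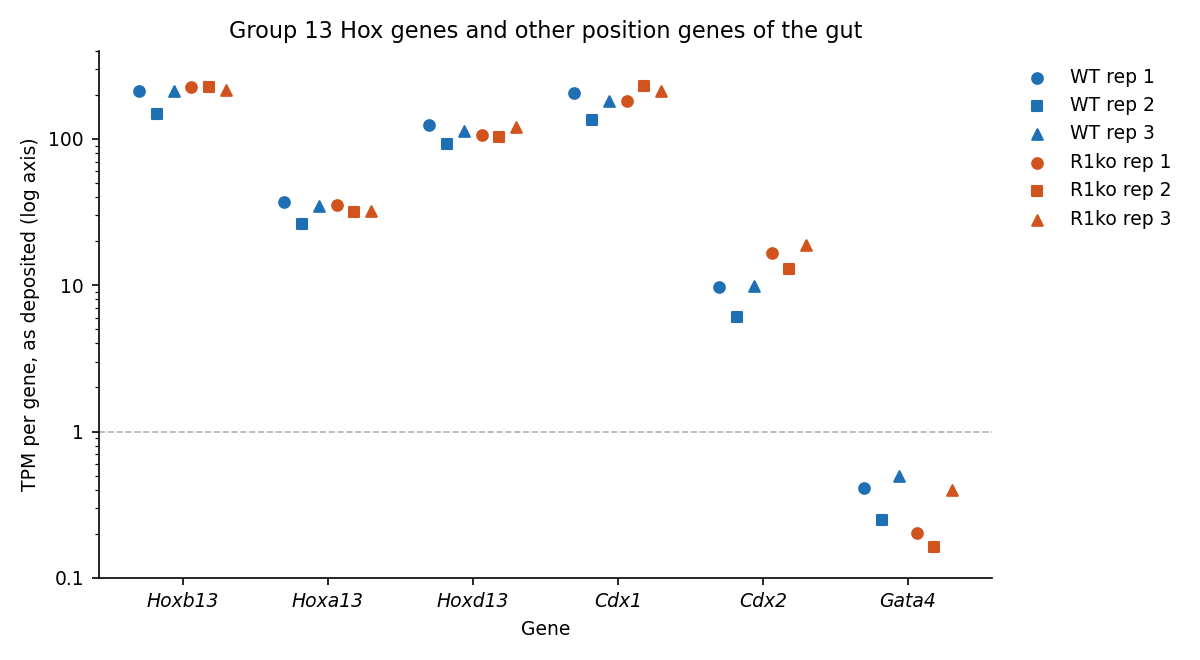
TPM as deposited (vertical axis, logarithmic) of the group 13 genes Hoxb13, Hoxa13 and Hoxd13 and of 3 other transcription factor genes used to tell gut segments apart, with 1 point for each library (blue WT, orange R1ko). Cdx2 separates the groups without passing the test, Cdx1 overlaps, and Gata4 is under the dashed line at 1 TPM in all 6 libraries.

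Markers of the colon's own ends were mostly above 0 in R1ko at both ends. On deposited TPM these were 4 of 4 proximal and 3 of 4 distal markers (55.7% of all genes). Of the 4 proximal markers 0 passed: Aqp4 stood at 8.56, 6.45 and 10.7 TPM in WT and 14.1, 11.7 and 15.7 TPM in R1ko (log2 fold change 0.68, limma adjusted p = 0.565, and 0.272 after scaling), and Fabp2 was at 0.19. Of the 4 distal markers found, 0 passed as well. Insl5, a hormone of distal enteroendocrine cells, stood at 92.6, 50.9 and 92.7 TPM in WT and 123, 142 and 136 TPM in R1ko (log2 fold change 0.81, limma adjusted p = 0.176, and 0.285 after scaling). Scnn1b, a subunit of the sodium channel of the distal colon, was higher in WT at 10.3, 10.03 and 11.0 TPM against 7.95, 7.72 and 6.45 TPM (log2 fold change -0.48, limma adjusted p = 1.0, and 0.378 after scaling). As deposited, 1 proximal and 1 distal marker were thus higher in R1ko without overlap (3.17% of all genes). Another distal marker was lower without overlap (1.81% of all genes).

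Markers of tissue next to the anus differed widely between libraries. The squamous and anal epithelium list (11 of 11 tested, 0 passed) summed to 1019, 259 and 758 TPM in WT and 977, 751 and 1040.1 TPM in R1ko, lowest in WT replicate 2. On deposited TPM, log2 fold changes were above 0 for 11 of 11 squamous, 10 of 10 skeletal muscle and 0 of 7 hair follicle genes (55.7% of all genes). The hair follicle list summed to 113, 15.8 and 70.7 TPM in WT and 14.9, 9.42 and 17.3 TPM in R1ko, and 3 of 7 genes (Krt71, Krt25 and Tchh) fell on deposited TPM (0.266% of all genes passed) while 0 passed after scaling (0.042% of all genes). WT replicates 1 and 3 were highest for this list and for Hoxc13. Among the WT libraries, replicate 2 had the least squamous, hair and skeletal muscle RNA and the highest share of group 13 among Hox TPM, 52.2%. Over all 6 libraries that share was highest in R1ko replicate 2, at 56.4%. The same R1ko library had the highest skeletal muscle sum, 3013 TPM, and the lowest hair follicle sum, 9.42 TPM. The part of anal tissue in the Hox values was not tested.

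Some Hox values carry a limit from overlapping genes. The table lists 9 antisense or long noncoding genes of the Hox clusters, among them Hotair, Hottip and Hoxa11os, with 26 transcripts and no value. The labels do not state that reads were assigned by strand. Of the 31-base words of Hoxb3, 52.1% also occur on the opposite strand in Hoxb3os, as do 26.5% of those of Hoxb2, 33.9% of those of Hoxa11 in Hoxa11os, and 19.4% of those of Hoxa7 in Hoxaas3. Within the shared words of these 4 genes, sense and antisense RNA cannot be told apart. Hoxd3 and Hoxd4 share 52.6% and 36.9% of their words with the predicted gene Gm28230 on the same strand. Predicted gene Gm28308, which spans Hoxa2 to Hoxa3, stood at 9.30 ± 1.73 TPM in WT and 8.94 ± 1.79 TPM in R1ko (SD, n = 3), above Hoxa2 itself, with which it shares 13.7% of the words of Hoxa2.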

How the data were processed

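RNA of whole colons from 3 WT and 3 Tnfrsf1a-/- (R1ko) mice was measured as transcript levels. The authors deposited 1 table of TPM, made with kallisto 0.43.1 (mm10) and tested with sleuth, per the submitters' processing notes; TPM are corrected for length and library total, and read depth cannot be had from them, so no counting interval is given. Libraries were made from polyA RNA, per the labels' protocols.

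Each of 131206 transcripts was taken once (1433 lines repeated a transcript with equal values), 88198 had values, and TPM were summed per gene. Hox genes were found by symbol, and GENCODE M21 (GRCm38) gave positions, transcript types and sequences. The 14284 genes averaging 1 TPM or more across libraries were compared as log2(TPM + 0.5) with limma 3.58.1 in R 4.3.3 (variance trend, no covariate). Benjamini-Hochberg adjustment ran over every gene tested, and the threshold was 0.05. For single values, exact permutation tests (two-sided) were used. The model was tested on simulated data. The paralog index and the shares carry no test.

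The genes described were the tested Hox genes (the top 20 with each value), all of group 13, and from each of 17 context lists the members that passed or the 2 with the smallest p on deposited TPM, plus Cdx1, Cdx2 and Gata4. Some genes chosen by this rule are not reported here. The Hoxb cluster values, Hoxc4, Hoxc10 and Hoxd8 were chosen after their values were seen. Members and lists were chosen with earlier results of these data known. Prac1 and Spink3, 2 listed markers, were not matched in the table and were not used here. Alternatives were other pseudocounts and filters, scalings, no variance trend, a replicate block, 1 transcript for each gene and each library left out.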

Additional observations from a re-analysis of the deposited data

How the results depend on the processing

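No Hox gene and no Hox transcript passed the threshold under any alternative run, and the lowest adjusted p of a Hox gene over them was 0.379 (Hoxb3, TPM recomputed over transcripts with a gene). The count over all genes was unstable: 38 genes passed in limma, against 2 with no filter on low values, 142 at a mean of 5 TPM, 6 after median-of-ratios scaling, 4 with TPM recomputed over transcripts with a gene, 17 with the most abundant transcript alone, and 20 (without WT replicate 2) to 298 (without WT replicate 1) with 1 library left out. Scaling without WT replicate 2, added after seeing the data, gave 21. The replicate number as a block gave 71 genes and 0 Hox genes. Same-numbered libraries correlated at 0.057, 0.145 and 0.189 in their scaled deviations from the group means. Libraries with different numbers correlated at -0.252 to 0.107. Each WT replicate correlated best with the R1ko replicate of its own number. R1ko replicate 1, however, correlated better with WT replicate 3 (0.107) than with WT replicate 1. Whether the numbers are pairs cannot be told from these values, and the main test did not use them as pairs.

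The Hox median lay between -0.18 and 0.11 over the alternatives, and between -0.08 and 0.00 relative to the median of all genes. The difference in paralog index was 0.04 to 0.17 with 1 library left out and 0.012 without the most abundant Hox gene, Hoxb13. The difference in the share of groups 9 to 13 was -0.06 to 1.33 percentage points with 1 library left out.

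Of 22 tested Hox genes, 14 changed sign in at least 1 of 16 alternatives and 8 kept it (Hoxa11, Hoxb13, Hoxb3, Hoxb5, Hoxb6, Hoxb7, Hoxd10 and Hoxd9). After scaling, Hoxd13 was at -0.027 and Hoxa9 at -0.023. With TPM recomputed over transcripts with a gene, Hoxd13 was at -0.13, Hoxa9 at -0.12, Hoxa13 at -0.092, Hoxa2 at -0.049, Hoxd11 at -0.026, Hoxa7 at -0.015 and Hoxd12 at -0.0040. Scaling without WT replicate 2 put Hoxa2 at -0.14 and Hoxa9 at -0.047. With 1 library left out, log2 fold changes spanned -0.074 to 0.31 for Hoxa10, -0.12 to 0.14 for Hoxa13, -0.25 to 0.28 for Hoxa2, -0.0078 to 0.33 for Hoxa3, -0.29 to 0.11 for Hoxa5, -0.56 to 0.00027 for Hoxa6, -0.11 to 0.25 for Hoxa7, -0.18 to 0.12 for Hoxa9, -0.18 to 0.0089 for Hoxb2, -0.18 to 0.068 for Hoxb9, -0.10 to 0.25 for Hoxd11, -0.091 to 0.29 for Hoxd12, -0.12 to 0.10 for Hoxd13 and -0.26 to 0.17 for Hoxd8. The cause of these changes was not tested. The unknown read depth limits what can be said of the 17 genes under 1 TPM.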

Other observations

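Evx genes stand at the posterior ends of the Hoxa and Hoxd clusters. Evx2, next to Hoxd13, held 4.03 ± 0.83 TPM in WT and 4.20 ± 0.23 TPM in R1ko (SD, n = 3), with a log2 fold change of 0.07. Evx1, next to Hoxa13, held 0.554 ± 0.136 and 0.662 ± 0.205 TPM and was not tested. Both were far below the group 13 genes beside them.

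Cell types of the colon wall other than epithelium, muscle and fibroblasts were read from lists as well. Enteric neuron and glia genes (9 of 9 tested, 0 passed) were led on deposited TPM by Uchl1 and Sox10, with log2 fold changes of 0.28 and 0.21. Leukocyte genes (5 of 6 tested, 0 passed) had Cd79a, a B cell gene, at -0.78, and their sum was lowest in R1ko replicate 2 at 11.1 TPM, against 18.0 to 30.0 TPM in the other 5 libraries. That library also had the highest paralog index. In the remaining lists the smallest p-values on deposited TPM belonged to Krt20 and Cdh1 of epithelium (0.29 and 0.23), Myocd and Actg2 of smooth muscle (-0.33 and -0.22), Col3a1 and Pdgfra of fibroblasts (-0.28 and -0.22), Lor and Krt13 of squamous epithelium (1.196 and 0.76), Myh4 and Actn3 of skeletal muscle (1.89 and 1.61), and Lyz1 and Slc10a2 of small intestine (-0.45 and 0.32). None of these 12 genes passed the threshold in limma, on deposited or scaled TPM.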
